A study of Mus musculus with 3 samples.

Results

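The genes Trp53, Mdm2, Mdm4, Rb1, Cdk6 and Ccnd3 carry much of the p53 and Rb pathways, and their DNA level was measured in 3 mouse neurosphere lines. They were taken by symbol: every array probe named for 1 of the genes was used, together with the probes up to 500 kb on each side of it, called its window here. They are 6 of 21120 genes that have a named probe and a window, with 47 probes of their own and 497 probes in their windows with those included, out of 170305 probes on the array. The study set neurosphere DNA, labelled with Cy5, against mouse liver DNA, labelled with Cy3, on the same array (array comparative genomic hybridisation, which compares the DNA level of 2 samples at each probe). The neurospheres, clusters of tumour cells grown in suspension, came from tumours resistant to an inhibitor of the receptor CSF1R and were used at passages 2 to 3 in neural stem cell medium. Each liver carries the animal number of its line. Line 1 has an animal number of its own, while lines 2 and 3 share an animal number and a liver label. The genotype, strain, age, driver of the tumours and inhibitor dose of these animals are not given in the sources used here, and no line from an untreated tumour was analysed here.

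Of the 180880 spots on an array, 6575 were controls. Between 99.0% and 99.4% of spots were well above background for neurosphere DNA, against 96.3% to 99.1% for liver DNA, and 0 were saturated. Estimated from the differences between neighbouring probes, the SD per probe was 0.39 on the log2 scale in line 1, against 0.24 in each of the other lines. Line 1 is thus the least precise. With 3 arrays of 1 group on 1 slide and no dye swap, a dye or slide effect cannot be told apart from the comparison of line with liver. The labels do not say whether lines 2 and 3 came from separate tumours, so the p-values speak for the spread among these lines alone.

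The p53 protein is a transcription factor that halts the cell cycle or triggers cell death after DNA damage and other stress. Mdm2 is the ubiquitin ligase that marks p53 for degradation, and Mdm4 is its relative that binds p53 and blocks its activity. The Rb protein holds E2F transcription factors back until cyclin D with Cdk4 or Cdk6 phosphorylates it, which lets a cell enter S phase. In human gliomas both pathways are commonly disturbed, by loss of Trp53 or Rb1 and by gain of Mdm2, Mdm4, Cdk6 or a D cyclin.

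The ratios rest on probes of 60 bases, given here as the array's designed sequences in the deposited files, with positions in mm9. The letters have no part in capitals, since no base is set apart from the rest, and the strand is not given in the files. Their place in exons or introns was not analysed here. The 2 Trp53 probes are shown because the whole Trp53 value rests on them.
Trp53 probe, chr11:69395366-69395425: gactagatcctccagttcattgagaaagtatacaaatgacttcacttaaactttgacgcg
Trp53 probe, chr11:69404685-69404744: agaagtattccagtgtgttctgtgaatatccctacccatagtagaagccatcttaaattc
One probe each of Mdm2 and Mdm4 is shown, the one with the highest ratio in line 1.
Mdm2 probe, chr10:117145567-117145626: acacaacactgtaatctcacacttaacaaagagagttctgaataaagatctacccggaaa
Mdm4 probe, chr1:134898171-134898230: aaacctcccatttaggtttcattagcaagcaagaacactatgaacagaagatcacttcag
For Rb1 and Cdk6, whose probes fell on both sides of 0, a probe above 0 in every line is given first and a probe below 0 in every line after it.
Rb1 probe, chr14:73635973-73636032: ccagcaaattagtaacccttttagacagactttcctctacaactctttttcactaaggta
Rb1 probe, chr14:73714039-73714098: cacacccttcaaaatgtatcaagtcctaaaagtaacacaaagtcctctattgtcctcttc
Cdk6 probe, chr5:3357006-3357065: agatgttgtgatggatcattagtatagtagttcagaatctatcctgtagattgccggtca
Cdk6 probe, chr5:3363010-3363069: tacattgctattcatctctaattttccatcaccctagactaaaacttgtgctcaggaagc
For Ccnd3, the probe with the highest mean ratio over the 3 lines, the probe below 0 in every line, and the probe at which the lines lay furthest apart are given in that order.
Ccnd3 probe, chr17:47672475-47672534: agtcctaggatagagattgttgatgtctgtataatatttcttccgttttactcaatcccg
Ccnd3 probe, chr17:47704205-47704264: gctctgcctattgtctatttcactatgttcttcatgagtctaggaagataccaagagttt
Ccnd3 probe, chr17:47731534-47731593: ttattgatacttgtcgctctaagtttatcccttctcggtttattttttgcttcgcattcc

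None of the windows around these genes averaged at the level of a whole copy gained or lost. A log2 ratio of neurosphere over liver was taken per probe and centred on the autosomal median of its array, so that 0 is the usual level, 3 copies over 2 would give 0.585 and 1 copy over 2 would give -1. Over the gene and its window, the 18 means (6 genes in 3 lines) lay between -0.058 and 0.16. None of the 18 reached 0.2 in size, and 0.837% of all genes tested had a window that did so in some line. Their 95% intervals, taken over probes and covering probe error within 1 array only, lay between -0.12 and 0.22. A change in a small share of the cells, or one shorter than the probe spacing, was not detectable at this resolution. The highest of the 18 windows was that of Trp53 in line 2 and the lowest that of Mdm4 in line 3.

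**Figure D1:**
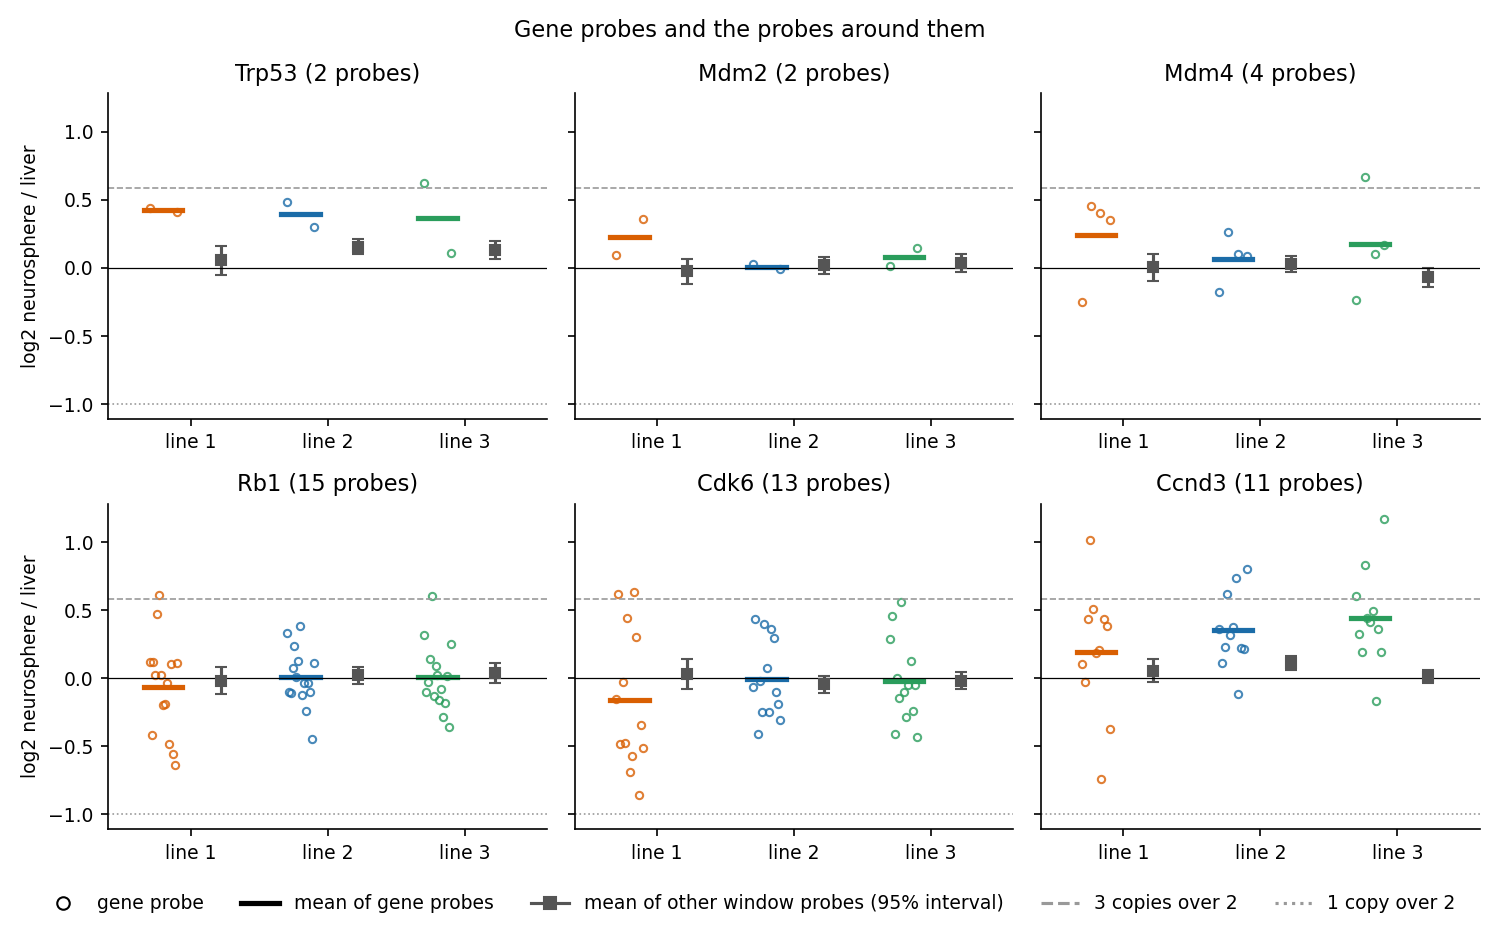
Log2 ratio of neurosphere over liver (vertical axis) for every probe of the 6 genes (open circles) in lines 1, 2 and 3, with the mean of the gene's probes as a bar and the mean of the other window probes as a square with its 95% interval over probes. Dashed and dotted lines mark 3 copies over 2 (0.585) and 1 copy over 2 (-1), and the bars of Trp53 and Ccnd3 lie above their squares in all 3 lines.

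Set against their windows, 2 of the 6 genes, Trp53 and Ccnd3, had a higher ratio than the probes around them by limma at an adjusted p of 0.05. Both lay above, and none of the 6 passed below. That share is to be read against the 23.8% of all 13026 genes with at least 2 probes and at least 10 other window probes that passed the same test, 10.8% above their windows and 13% below. A count of 2 in 6 is close to that background and is not a result about these genes. At an unadjusted limma p of 0.05, Trp53, Mdm4 and Ccnd3 passed, 3 of 6, beside 40.6% of all genes. Against 0 instead of the window, limma again called Trp53 and Ccnd3, 2 of 6, with a background of 23.9% (14.3% above 0 and 9.65% below). Unadjusted, the same 3 genes passed against 0, beside 40.3%. The ratio of gene minus window had the same sign in every line for 4 of the 6 genes, beside 62.7% of all genes. It was above 0 in every line for Trp53, Mdm4 and Ccnd3, beside 28.5% of all genes, and below 0 in every line for Rb1, beside 34.2%. The gene's own mean was above 0 in every line for Trp53, Mdm2, Mdm4 and Ccnd3, 4 of 6, beside 33.7%. The median of the 6 differences was 0.14, against -0.0079 over all genes.

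The share called differed with the number of probes of a gene. Among genes with 2 probes 35.5% passed, with 3 to 4 probes 26.4%, with 5 to 9 probes 19.3%, with 10 to 15 probes 13.4% and with more than 15 probes 8.17%. Trp53 and Mdm2 stand among the first of these, Mdm4 among the second, and Rb1, Cdk6 and Ccnd3 among those with 10 to 15.

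**Figure D2:**
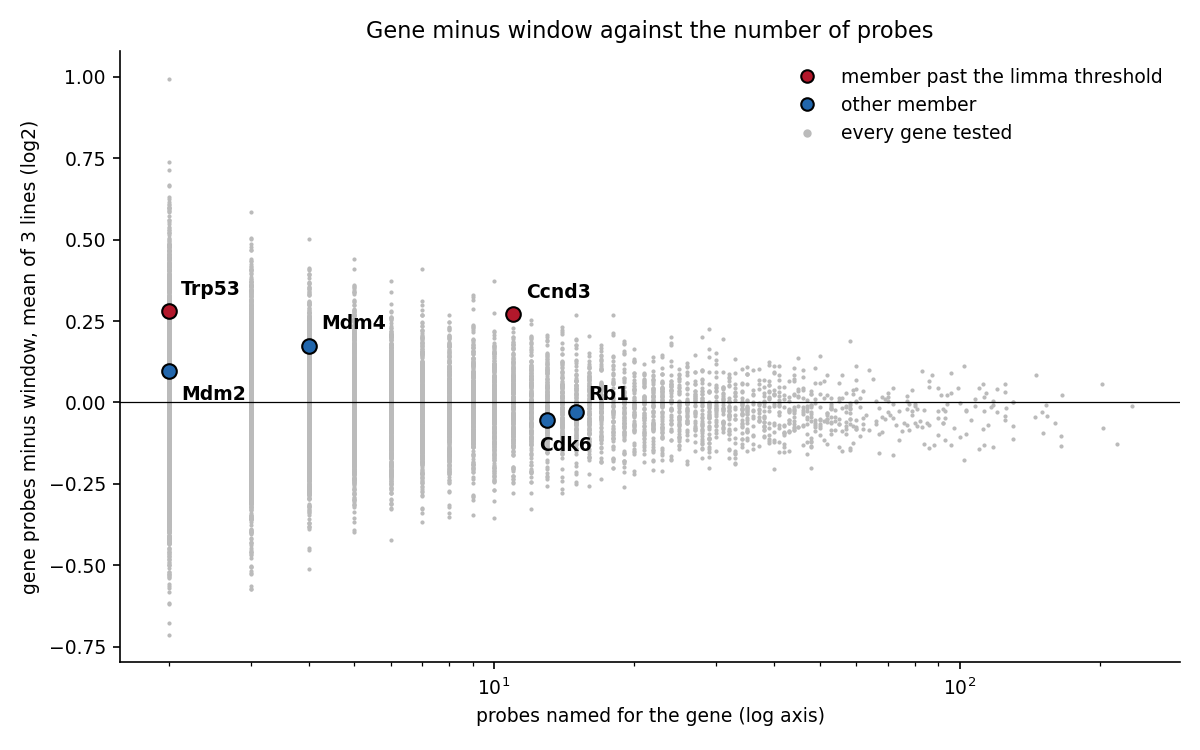
Mean over the 3 lines of gene probes minus window (vertical axis, log2) against the number of probes named for a gene (horizontal log axis) for the 13026 genes tested (grey) and the 6 genes described here (red where past the limma threshold, blue otherwise). Trp53 at 0.28 lies within the wide cloud of genes with 2 probes, and Ccnd3 at 0.27 lies near the upper edge of genes with 11 probes.

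Trp53, which encodes p53, had a mean ratio above 0 and above its window in all 3 lines, on 2 probes alone. Its 2 probes span chromosome 11 from 69395366 to 69404744 (mm9) and averaged 0.43, 0.39 and 0.37 in lines 1, 2 and 3. The 95 other window probes averaged 0.057, 0.16 and 0.14 in the same order of lines. The gene thus exceeded its window by 0.37, 0.24 and 0.23, and the 3 lines lay on the same side. The mean difference was 0.28 ± 0.078 (SD, n = 3 lines), with an SE of 0.045 and an adjusted p of 0.0149 by limma. Tested against 0, the Trp53 mean of 0.40 ± 0.029 (SD, n = 3) had a limma adjusted p of 0.00597. With normexp background correction the difference of Trp53 from its window was 0.14 and no longer passed limma (adjusted p = 0.0616).

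Its probes ran in opposite orders across the lines. The probe at the lower coordinates had a ratio of 0.44, 0.49 and 0.63 in lines 1, 2 and 3, and that at the higher coordinates had 0.41, 0.30 and 0.11. The first was among the dimmer probes, with processed signals of 353, 371 and 456 for neurosphere DNA against 260, 266 and 295 for liver DNA. The second was brighter, at 1935, 1802 and 1470 for neurosphere DNA against 1453, 1468 and 1365 for liver DNA. With 2 probes, the 95% interval of the gene mean over probes reached below 0 in lines 2 and 3. Among the 3571 genes with 2 probes, 16.0% lay at least as far from their windows as Trp53.

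The neighbours of Trp53 stayed lower. Wrap53, at 8.66 kb on the side of the lower coordinates, averaged -0.40, -0.076 and -0.27 over 2 probes. AK084182, whose first probe lies 8.02 kb away on the other side, averaged 0.081, 0.11 and 0.075 over 26 probes. Those probes run from 69412763 to 70012709, past the end of the window, so that mean covers a wide stretch. Of the 14 genes in the window with at least 2 probes, 2 had a higher mean than Trp53 and 12 a lower one, from -0.30 at Kdm6b to 0.70 at Rai12. The window itself was above 0 in every line, with means of 0.064, 0.16 and 0.14 including the gene's own probes. Its sides were alike: 0.061, 0.15 and 0.12 at lower coordinates and 0.052, 0.17 and 0.16 at higher coordinates.

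Mdm2, the ligase that marks p53 for degradation, did not pass the test against its surroundings. Its 2 probes, on chromosome 10 from 117126240 to 117145626 (mm9), averaged 0.23, 0.011 and 0.081 in lines 1, 2 and 3. The 66 other probes of its window averaged -0.026, 0.019 and 0.036. Line 1 was the only one with a gap, of 0.25, while the difference was -0.0081 in line 2 and 0.046 in line 3. The mean difference of 0.097 ± 0.14 (SD, n = 3) did not pass limma (adjusted p = 0.258). The gap in line 1 came mainly from the probe at the higher coordinates, at 0.36, -0.0082 and 0.15 in lines 1, 2 and 3, while the other stood at 0.093, 0.029 and 0.016. The flanking genes Cpm (0.13, 0.18 and 0.32) and Nup107 (-0.29, 0.016 and -0.031) lay on either side of it.

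Mdm4, the partner of Mdm2 that blocks p53 activity, was above its window in each line but did not pass the test. Its 4 probes on chromosome 1, from 134888882 to 134913941 (mm9), averaged 0.24, 0.069 and 0.18 in lines 1, 2 and 3. The 81 other probes averaged 0.0037, 0.029 and -0.070. Differences of 0.24, 0.039 and 0.25 gave a mean of 0.17 ± 0.12 (SD, n = 3), with a limma p of 0.0166 before and 0.0606 after adjustment. The gene's probes fell into different levels. That at the lowest coordinates was below 0 in every line (-0.25, -0.18 and -0.24), and the next was the highest (0.45, 0.26 and 0.67). The remaining probes stood at 0.40, 0.10 and 0.10 and at 0.35, 0.086 and 0.17. Among the 1394 genes with 4 probes, 24.5% lay at least as far from their windows. The neighbouring AK161882 (0.23, 0.13 and -0.0066) and Pik3c2b (-0.22, 0.047 and -0.039) showed spreads of the same order.

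Rb1, which encodes the Rb protein itself, had a mean near 0 in every line. Its 15 probes cover chromosome 14 from 73595475 to 73722998 (mm9) and averaged -0.063, 0.0056 and 0.0079 in lines 1, 2 and 3. The 57 other window probes averaged -0.017, 0.021 and 0.036. With this many probes the level is bounded: the 95% interval over probes was -0.26 to 0.14 in line 1, -0.11 to 0.13 in line 2 and -0.13 to 0.15 in line 3, all far from the -1 of 1 copy over 2. The mean difference from the window was -0.030 ± 0.016 (SD, n = 3; limma adjusted p = 0.579).

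Within Rb1, 5 probes were above 0 in all lines and 5 below 0 in all lines. The probe at 73635973 was at 0.47, 0.24 and 0.60, and the probe at 73714039 was at -0.64, -0.45 and -0.36. These are the probes with the highest and the lowest mean of the 15, given to show the range within the gene. The flanking Rcbtb2 averaged 0.15, 0.15 and 0.026, and Itm2b averaged -0.33, -0.13 and -0.21.

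Cdk6, the kinase that pairs with D cyclins to phosphorylate Rb, also had means near 0 in lines 2 and 3 and a lower one in line 1. On chromosome 5, from 3351352 to 3517971 (mm9), its 13 probes averaged -0.16, -0.0026 and -0.021. The 59 other probes averaged 0.034, -0.044 and -0.018. Only 4 of these lie at lower coordinates, since the gene sits near the start of the array's coverage of the chromosome, so the window is nearly all on 1 side. The differences of -0.20, 0.042 and -0.0036 gave a mean of -0.053 ± 0.13 (SD, n = 3; limma adjusted p = 0.507), and the lines did not share a sign.

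Of the Cdk6 probes, 3 were above 0 and 6 below 0 in all lines. The probe at 3357006 was at 0.62, 0.44 and 0.46, and its neighbour at 3363010 was at -0.48, -0.41 and -0.41, the highest and the lowest mean of the 13. The probe at 3490706 was at -0.86 in line 1 against -0.10 in line 2 and -0.24 in line 3, the lowest value of any of the 47 probes. Fam133b, the nearest gene on the side of higher coordinates, averaged 0.045, -0.056 and -0.029.

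Ccnd3, which encodes cyclin D3, was above its window in all 3 lines and is the only gene of the 6 that both passed the test and has more than 4 probes. Its 11 probes, on chromosome 17 from 47645182 to 47731593 (mm9), averaged 0.19, 0.35 and 0.44 in lines 1, 2 and 3. The 92 other probes averaged 0.055, 0.11 and 0.010. The gene exceeded them by 0.14, 0.24 and 0.43, a mean of 0.27 ± 0.15 (SD, n = 3), with an SE of 0.061 and a limma adjusted p of 0.0292. Against 0, the mean of 0.33 ± 0.13 (SD, n = 3) had a limma adjusted p of 0.0118. With lines 2 and 3, which share an animal number and a liver label, averaged as 1 animal, the difference of Ccnd3 from its window was 0.24 and did not pass limma (adjusted p = 0.0666). Nor did it pass limma with normexp background correction (0.26, adjusted p = 0.0569) or in the authors' value table (0.24, adjusted p = 0.0573). The window means on either side of the gene were 0.081, 0.10 and 0.0086 at lower coordinates and 0.026, 0.12 and 0.012 at higher coordinates.

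The higher ratio was spread over most of the Ccnd3 probes. Of the 11 probes, 8 were above 0 in line 1 and 10 in each of lines 2 and 3, with 8 above 0 in every line. The highest mean was at 47672475, with 1.01, 0.62 and 0.83. The probe at 47704205 was below 0 throughout, at -0.74, -0.12 and -0.17. Among the 275 genes with 11 probes, Ccnd3 included, 0.727% lay at least as far from their windows as Ccnd3. That is the smallest such share of the 6 genes and is not adjusted for being the smallest. Among the 1314 genes with 10 to 15 probes, 6 with Ccnd3 included lay at least 0.25 above their windows, a limit chosen after the values were seen. In the window, all 10 other genes with at least 2 probes had a lower mean than Ccnd3. Of the nearest, AI661453 averaged 0.051, 0.36 and 0.11, and Bysl averaged -0.19, 0.16 and 0.14.

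**Figure D3:**
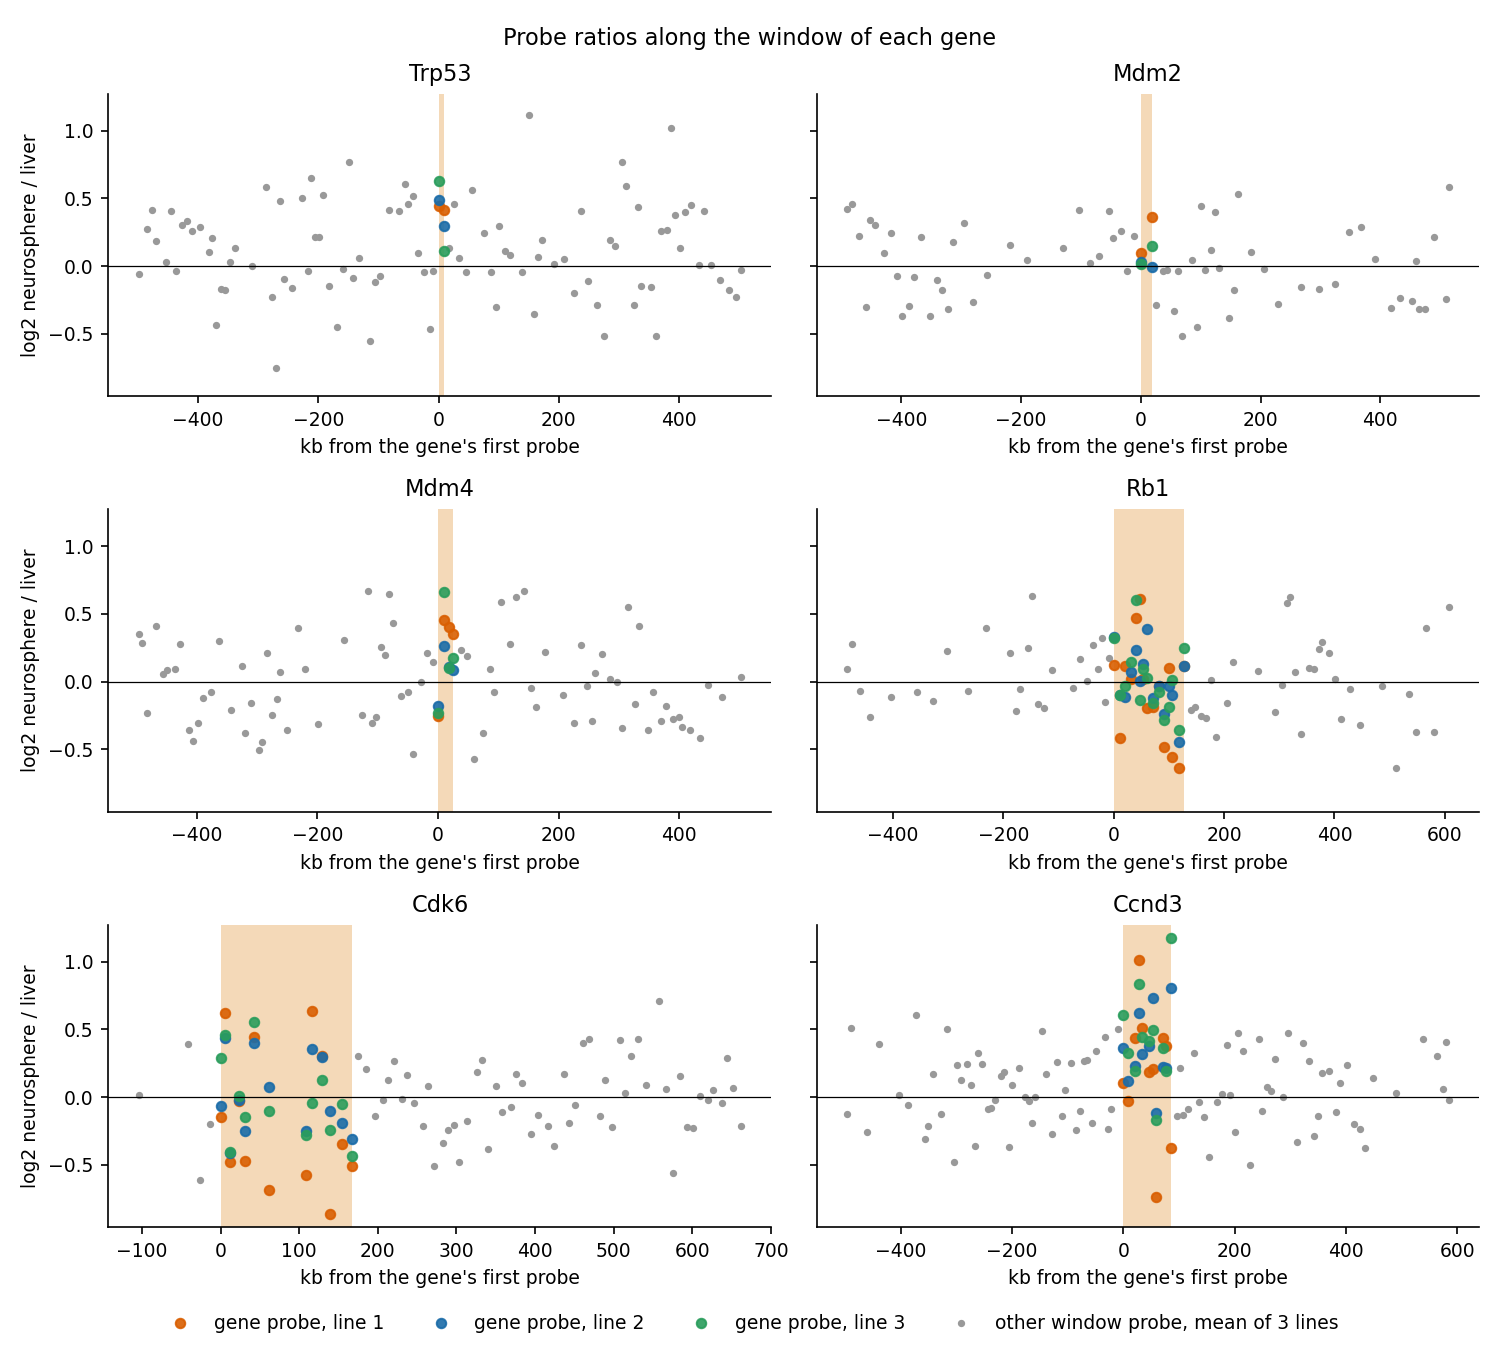
Log2 ratio of neurosphere over liver (vertical axis) against the distance in kb from a gene's first probe for the 6 genes, with coloured points for gene probes in each line, grey points for the mean of the 3 lines at other window probes, and shading from first to last gene probe. Of the Ccnd3 probes, 8 lie above 0 in every line, and Cdk6 has 4 window probes to its left.

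One Ccnd3 probe separated the animals. The last of the gene, at 47731534, was at -0.37, 0.80 and 1.17 in lines 1, 2 and 3, so that line 1 minus the mean of the other lines was -1.36. Its processed signal for neurosphere DNA was 3033, 2802 and 3173, nearly level, against 3926, 1609 and 1408 for liver DNA. The lines thus differed in the liver channel at this probe, and lines 2 and 3 share a liver label. A gap of 1 or more between line 1 and the mean of lines 2 and 3 was present at 0.451% of all named probes, and 0.233% were lower in line 1 by that much. No other probe of the 47 had such a gap.

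Without that probe the 3 lines drew closer. The other 10 Ccnd3 probes averaged 0.25, 0.31 and 0.37 in lines 1, 2 and 3, or 0.20, 0.20 and 0.36 above the window. Leaving out all such probes on the array, an alternative added after the data were seen, gave a mean difference of 0.25 and a limma adjusted p of 0.0173. The dimmest Ccnd3 probe, at 47697874, was not well above background for liver DNA in line 2.

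**Figure D4:**
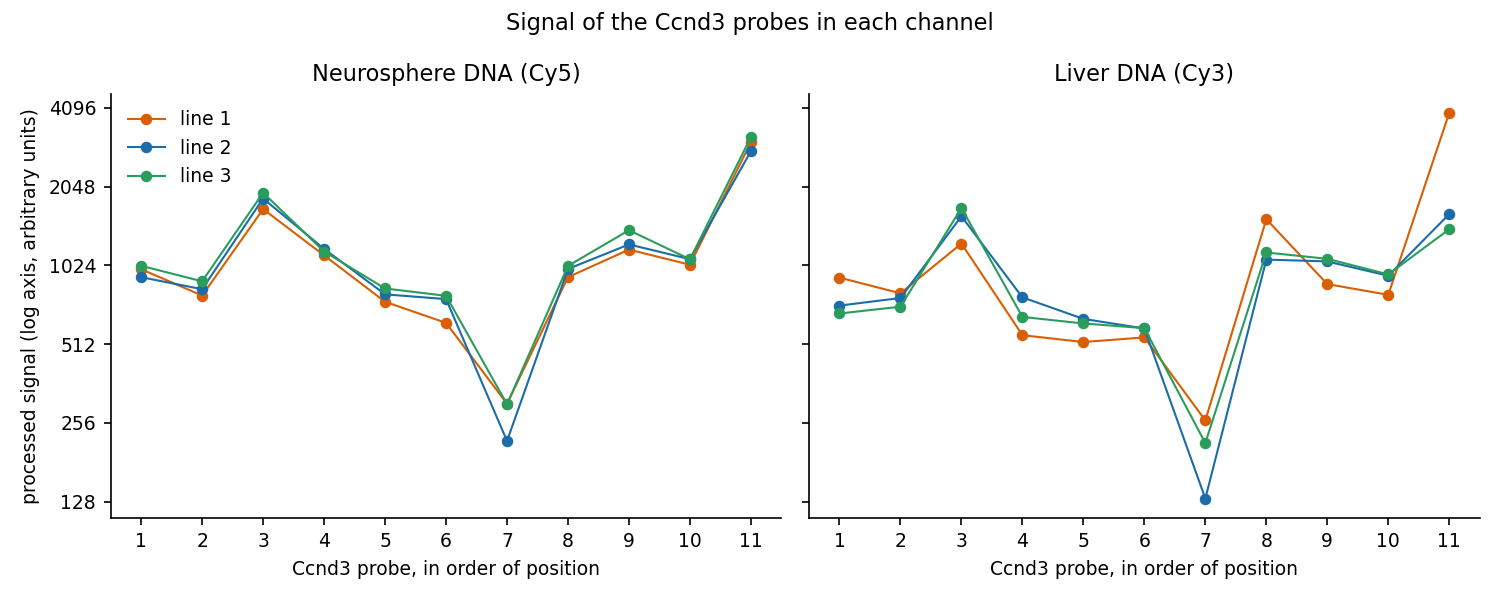
Processed signal (log axis, arbitrary units) of the 11 Ccnd3 probes in order of position, for neurosphere DNA on the left and liver DNA on the right, 1 curve per line. The curves of the neurosphere channel overlap at the last probe (3033, 2802 and 3173), while in the liver channel line 1 is higher (3926) than lines 2 and 3 (1609 and 1408).

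Signal strength moved with the ratio. Over the 113879 named probes with a value in all lines, the ratio and the probe's mean signal correlated at -0.50, -0.48 and -0.47 in lines 1, 2 and 3, and over the 47 probes of these genes at -0.51, -0.54 and -0.38. Probes on the same arrays share slide, dye and labelling, so these values are descriptions. Relative to the median of the array, the mean log2 signal of Trp53 was -0.61, -0.58 and -0.58, and that of Ccnd3 was -0.27, -0.30 and -0.24. Mdm2 was like Ccnd3, at -0.27, -0.30 and -0.23. Rb1 was dimmer than Ccnd3, at -0.32, -0.43 and -0.39. Mdm4 (-0.022, -0.10 and -0.074) and Cdk6 (-0.056, -0.033 and -0.0020) were close to the median. After a loess normalisation, which removes the trend of ratio on signal, the difference was 0.20 for Trp53 (limma adjusted p = 0.0303) and 0.24 for Ccnd3 (limma adjusted p = 0.0499). It was 0.15 for Mdm4, 0.031 for Mdm2, -0.013 for Cdk6 and -0.10 for Rb1, none past the limma threshold. Rb1 thus lay further below its window than without loess (-0.030). With normexp background correction Rb1 was at -0.13 (limma adjusted p = 0.0738). Whether signal strength accounts for the differences was not tested.

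Probe by probe, 22 of the 47 probes (46.8%) were above 0 in all lines, beside 32.7% of all named probes, and 13 (27.7%) were below 0 in all lines, beside 34.2%. Ccnd3 gave 8 of the 22 and Rb1 gave 5. Lines 2 and 3 were the most alike over the 47 probes, with a correlation of 0.86, against 0.63 between lines 1 and 2 and 0.58 between lines 1 and 3. The same order held over all 113879 named probes, at 0.81, 0.69 and 0.64. Lines 2 and 3 share the liver label, which enters both ratios. In Ccnd3 the probes correlated at 0.88 between lines 2 and 3 but at 0.28 and 0.22 between line 1 and each of them (n = 11), while the values in the same order of pairs were 0.80, 0.84 and 0.74 in Cdk6 (n = 13) and 0.77, 0.56 and 0.55 in Rb1 (n = 15).

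Other genes of both pathways were measured from 4 lists, 80 genes in all. A probe of their name was used for 70, and 48 had the probes and window for the test. Of these 48, limma called 9, or 18.8%, beside 23.8% of all genes: 3 above their windows and 6 below. The median difference was 0.0086, against -0.0079 over all genes. No window of a listed gene reached 0.2 in size in any line, with means between -0.16 and 0.17.

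Among the p53 regulators and relatives, limma called 3 of 17 tested genes below their windows and 0 above. Of all genes, 13% were called below and 10.8% above. The median difference over the 17 was -0.021. Cdkn2a, which encodes the inhibitors p16Ink4a and p19Arf that guard the Rb and p53 pathways, lay the furthest below, at -0.44, -0.82 and -0.77 (mean -0.68, limma adjusted p = 0.0111). It has 2 probes. Chek1, a DNA damage checkpoint kinase, was at -0.26, -0.27 and -0.34 over 2 probes (mean -0.29, limma adjusted p = 0.0123). Atm, the kinase that signals DNA breaks to p53, was at -0.31, -0.19 and -0.21 over 10 probes (mean -0.24, limma adjusted p = 0.0173).

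Of the 12 p53 target genes tested, limma called 2 above and 1 below their windows, 25% beside 23.8% of all genes. The median difference over the 12 was 0.042. Trp53inp1, a stress response gene, was at 0.15, 0.18 and 0.28 above its window over 2 probes (mean 0.20, limma adjusted p = 0.0247). Fas, the death receptor, was at 0.21, 0.093 and 0.14 over 2 probes (mean 0.15, limma adjusted p = 0.0498). Xpc, a nucleotide excision repair factor, was at -0.34, -0.27 and -0.25 over 3 probes (mean -0.29, limma adjusted p = 0.0123).

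On the Rb side, the list of D cyclins, kinases and their inhibitors had 9 of 16 genes with a probe of their name and 3 tested, Ccnd2, Skp2 and Fbxw7. By limma 0 of these passed, also at an unadjusted p of 0.05, and their median was -0.075. Cdk4, the other kinase of D cyclins, had no value here. Of 16 tested pocket proteins, E2F factors and partners, limma called 1 above and 2 below their windows, 18.8% beside 23.8% of all genes. The median difference over the 16 was 0.044. E2f2, an activator E2F, was at 0.26, 0.33 and 0.16 over 2 probes (mean 0.25, limma adjusted p = 0.0185). The related activator E2f3 was at -0.30, -0.13 and -0.22 over 8 probes (mean -0.22, limma adjusted p = 0.0244). Lin52, a subunit of the DREAM complex that represses cell cycle genes with pocket proteins, was at -0.096, -0.27 and -0.27 over 7 probes (mean -0.21, limma adjusted p = 0.0317).

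The genes elsewhere with the values closest to Trp53, Mdm4 and Ccnd3 were picked on these same values, so their closeness is by construction. By Euclidean distance over the 3 lines in gene minus window, among genes with at least 5 probes, those most like Trp53 were Arl8b (0.37, 0.22 and 0.22) and Aox4 (0.34, 0.23 and 0.25). Mdm4 was closest to Pbrm1 (0.24, 0.068 and 0.24) and Ppp3cb (0.21, 0.057 and 0.25). Ccnd3 was closest to Slc44a3 (0.14, 0.24 and 0.36) and D6Mm5e (0.13, 0.18 and 0.38). The distances were 0.021 and 0.033 for Trp53, 0.031 and 0.033 for Mdm4, and 0.072 and 0.083 for Ccnd3.

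**Figure D5:**
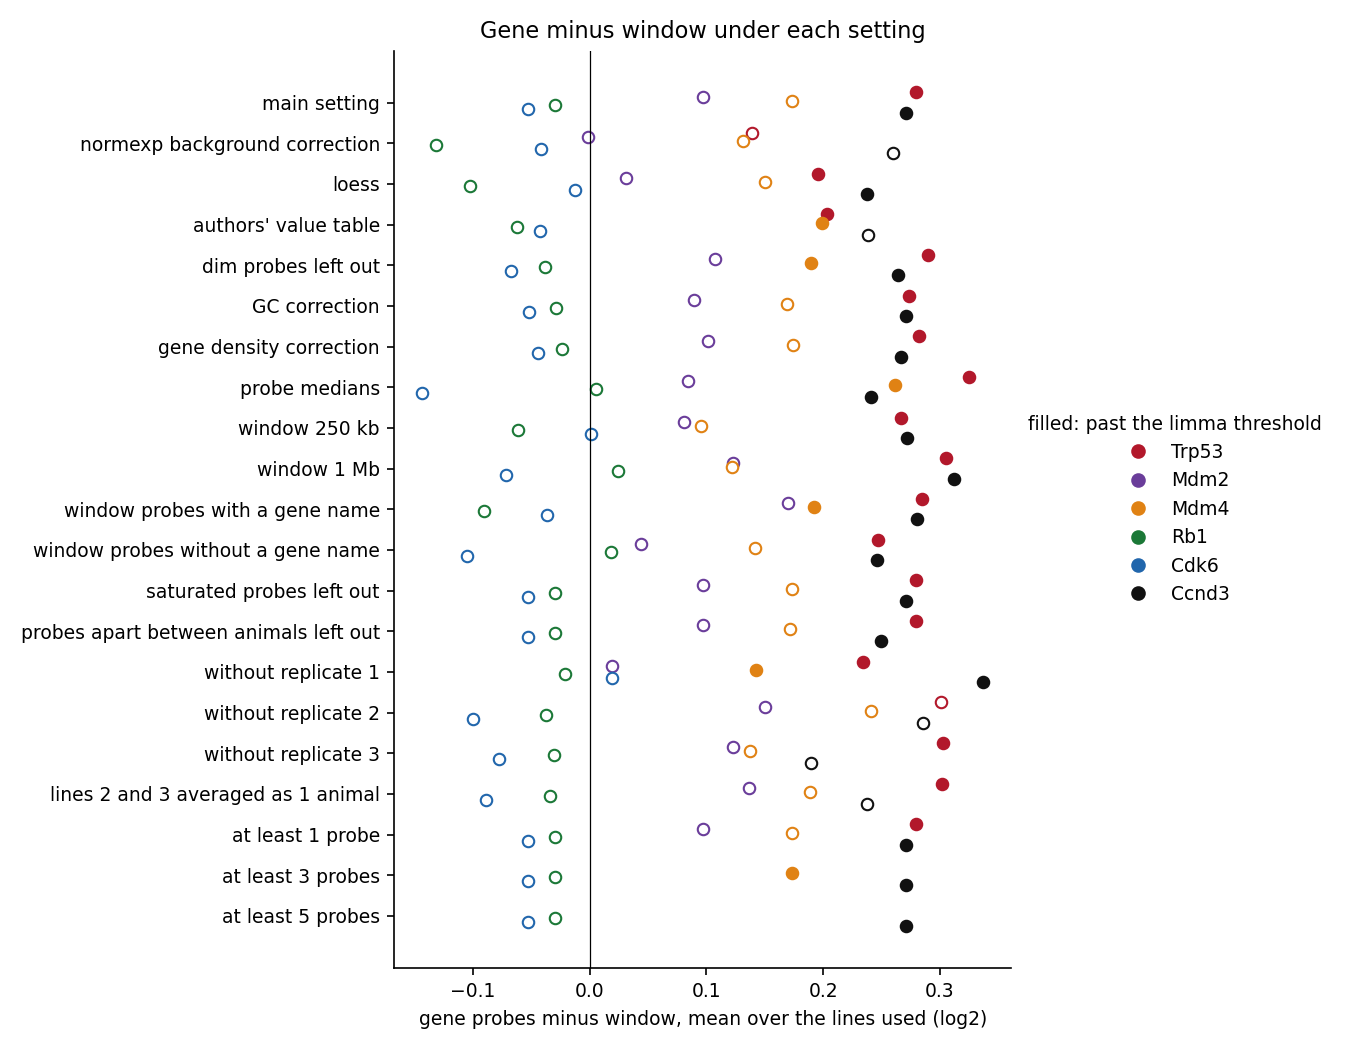
Gene probes minus window (horizontal axis, log2, mean over the lines used) for each of the 6 genes under the main setting and each alternative named down the vertical axis, filled where past the limma threshold. Trp53 ranges from 0.14 to 0.32 and Ccnd3 from 0.19 to 0.34 over the alternatives, and Mdm2, Rb1 and Cdk6 are filled under none.

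The differences of Trp53 and Ccnd3 stayed above 0 under every alternative run, while their calls did not all hold. Trp53 ranged from 0.14 to 0.32 and passed limma under 16 of 18 alternatives (adjusted p 0.000558 to 0.0616). Ccnd3 ranged from 0.19 to 0.34 and passed under 15 of 20 (adjusted p 0.000161 to 0.0946 by limma). Mdm4 ranged from 0.096 to 0.26 and passed under 6 of 19 (adjusted p 0.0325 to 0.236 by limma). For Trp53, Ccnd3 and Mdm4 alike, the lowest adjusted p came without line 1, which leaves only lines 2 and 3. Those lines share an animal number and a liver label, so these lowest values do not speak for separate animals. With all 3 lines but normexp background correction, 0 of the 6 genes passed limma, beside 16.3% of all genes. Without line 2, 0 of the 6 passed as well, beside 3.73% of all genes. Trp53 was then at 0.30 (limma adjusted p = 0.0593) and Ccnd3 at 0.29 (limma adjusted p = 0.0946). Without line 3, Ccnd3 was at 0.19 (limma adjusted p = 0.0910).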

How the data were processed

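Per the file headers, spots were read with Agilent Feature Extraction 10.7.3.1 on an mm9 design, and the deposited processed intensity values are background-subtracted and dye-normalised by the authors. The deposited value table holds log10 ratios of Cy5 over Cy3 (column medians 0.000435, -0.00146 and -0.00271), which correlated with the scanner ratios at 0.867, 0.844 and 0.884 (slopes 0.749, 0.707 and 0.783). Its direction is thereby settled, while its centring stays unknown.

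The log2 ratio was computed from the deposited intensities without loess, per array. Control and outlier spots were left out, spots of a probe were averaged, and 161460 autosomal probes set the centre. Genes on autosomes and X with at least 2 named probes and 10 other probes within 500 kb were tested with limma 3.58.1 (lmFit, eBayes, 2-sided, Benjamini-Hochberg over all genes) in R 4.3.3. Ratios, windows and figures were made in Python 3.11.15 (pandas 2.3.3, numpy 2.4.6, scipy 1.17.1, matplotlib 3.10.9). The test was also run on simulated data with independent lines of equal spread. These arrays have neither property, so that run does not speak for the calls made here. The samples form 1 group of 3 lines. Lines 2 and 3 come from the same animal number but were counted separately.

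The genes, the lists and the tests were chosen with earlier results of these data known. Named genes are the 6 genes, the nearest gene on each side with at least 2 probes, at most 6 genes per list that passed the test on 1 side in every line, and the 2 genes most like Trp53, Mdm4 and Ccnd3. Kdm6b and Rai12, the ends of the Trp53 window's range, and the tested genes of the cyclin list were named after their values were seen. Cdk4 was named as background. Alternatives covered background correction, normalisation, GC and gene density, window size, probe minimums and lines left out. Symbols follow the array's design and can be old.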

Additional observations from a re-analysis of the deposited data

How the results depend on the processing

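Leaving out a line or changing the background correction altered the calls more than window size did. Past the limma threshold on gene minus window were 2 of the 6 genes (23.8% of all genes), against 0 with normexp background correction (16.3% of all genes). Each count below is to be read against the share of all genes in brackets. The count was 1 with lines 2 and 3 averaged as 1 animal (11.0%), and 1 of 3 tested genes with at least 5 probes (25.7%). It was 3 without line 1 (39.6%), 0 without line 2 (3.73%) and 1 without line 3 (11.6%). Leaving out line 1 keeps only lines 2 and 3, which share an animal number and a liver label. Against 0, the count of 2 became 1 with lines 2 and 3 averaged and 1 with at least 5 probes. It was 3 without line 1, 1 without line 2 and 1 without line 3. The shares of all genes against 0 are not given here for these settings, so those counts are descriptions. Windows at or past 0.2 numbered 0, against 2 genes (Trp53 in lines 2 and 3, Ccnd3 in line 2) when window probes without a gene name were used. There the gene's own probes weigh more by construction. The unnamed probes were also higher, as the mean difference fell from 0.28 to 0.25 for Trp53 and from 0.27 to 0.25 for Ccnd3. Of the 48 listed pathway genes tested, 9 were called, against 5 with normexp, 3 with loess and 3 with the authors' value table. Of all genes, 23.8%, 16.3%, 14.7% and 13.1% were called in the same order. With lines 2 and 3 averaged 5 were called, without line 1 17, without line 2 1 and without line 3 6. The shares of all genes were 11.0%, 39.6%, 3.73% and 11.6% in the same order.

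Of all 13026 genes, 3103 were called (1404 above, 1699 below), against 2119 with normexp, 1912 with loess and 1438 with lines averaged. Leaving out line 2 gave 486 and leaving out line 3 gave 1517. Leaving out line 1, so that only lines 2 and 3 of 1 animal number remained, gave 5157. Other numbers of genes were tested with the value table (1680 called of 12790) and with at least 1 probe (4665 of 21120), 3 probes (2257 of 9455) or 5 probes (1520 of 5915). Window probes without a gene name gave 1001 above and 2008 below of 12297.

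Signs turned for Mdm2 with normexp (-0.0018), for Rb1 with probe medians (0.0052), 1 Mb windows (0.024) and unnamed window probes (0.018), and for Cdk6 with 250 kb windows (0.00098) and without line 1 (-0.10 to 0.019 over the lines left out). The limma call of Trp53 was lost with normexp (0.14, adjusted p = 0.0616), and that of Ccnd3 with normexp (0.26, adjusted p = 0.0569), the value table (0.24, adjusted p = 0.0573) and lines averaged (0.24, adjusted p = 0.0666). Fewer samples enter where lines are averaged or left out, and the cause of the changed calls was not tested for any setting. Mdm4 passed limma with at least 3 probes (adjusted p = 0.0478), the value table (0.0442), dim probes left out (0.0471), probe medians (0.0387), named window probes (0.0467) and without line 1 (0.0325). With 0 saturated probes, the setting without them had the same values. No paired analysis was possible because the lines form a single group, while each ratio already sets a line against liver on its own array. The number of arrays limits the precision, and no locus has a replicate within a line.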
